A study of Mus musculus with 39 samples.

Results

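The 31 interferon response genes described here are genes known to be switched on by type I interferon in mouse cells. They were taken as a fixed list of symbols and not by their values: Stat2, Irf9, Irf7, Ifih1, Ddx58, Dhx58, Zbp1, Isg15, Usp18, Herc6, Ifit1, Ifit2, Ifit3, Oas1a, Oas2, Oas3, Oasl1, Oasl2, Mx1, Mx2, Gbp2, Gbp3, Gbp7, Rsad2, Cmpk2, Bst2, Ifi44, Rtp4, Xaf1, Parp14 and Trim30a. All 31 were found among the 49585 gene IDs of each count table, and all 31 were among the 16327 genes that passed a filter on low counts. They were measured by stranded mRNA sequencing of 39 libraries of intestinal tumours and of the unaffected tissue around them. Every mouse was C57BL/6 and carried Apc Min/+, a truncating Apc allele that causes intestinal adenomas. In 16 libraries Adam17 was wild type (12 tumours and 4 non-tumour tissues), and in 23 libraries the mice were ADAM17 ex/ex (17 tumours and 6 non-tumour tissues), homozygous for a hypomorphic germline allele of the ADAM17 protease. Age, sex, intestinal segment and animal are not in the labels, so libraries of a group may share a mouse. The p-values therefore describe variation from library to library, which may be technical.

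The libraries held 438639 to 11112321 gene counts, and only wild-type non-tumour replicate 1 held fewer than 5668185 (38 libraries held that or more). In that shallow library 1 count equals 6.06 CPM (counts-per-million). The targeted gene behaved as labelled, with Adam17 at 54.7 ± 12.9 CPM (SD, n = 12) in wild-type tumours and 23.7 ± 5.61 CPM (n = 17) in ex/ex tumours. A list of 13 epithelial genes had a mean log2 CPM of 5.23 in wild-type tumour replicate 4, against 7.64 to 10.35 in the other tumours of both genotypes. Epcam, which defines epithelium, was at 83.3 CPM there. Results that rest on this library are given with and without it. By sex-linked genes, 5 libraries look male (ex/ex tumour replicates 1 to 3 and ex/ex non-tumour replicates 1 and 2), all of them ex/ex.

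Type I interferons (the IFN-alpha family and IFN-beta) bind the IFNAR1 and IFNAR2 receptor, and type III interferons (IFN-lambda) bind IFNLR1 with IL10RB, which in the gut acts mainly on epithelium. Both receptors lead to the phosphorylation of STAT2, which acts in a complex with IRF9 that binds interferon-stimulated response elements in the promoters of antiviral genes. Type II interferon (IFN-gamma) works mainly through gamma-activated sequences, and guanylate-binding proteins respond strongly to it. Intestinal epithelium keeps a basal level of such genes in response to the microbiota, and infiltrating immune cells express them as well.

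Promoter windows from 250 bases before to 50 bases after the transcription start were available from RefSeq (build GRCm38.p6) for 23 of the 31 genes, in 27 windows. The core letters of the response element, GAAANNGAAA, searched on both strands, were present in the windows of 14 of these 23 genes (60.9%), against 3.99% of all 27025 genes with a window. The letters of the gamma-activated sequence, TTCNNNGAA, were present for 4 of 23 genes (17.4%), against 9.55% of all genes. Windows for Usp18, Mx1, Oas2, Rtp4, Parp14, Zbp1, Dhx58 and Mx2 were not used here. The following windows are shown whole because these 4 genes carry the results below: Isg15 and Ifit1 track the spread between libraries, and Rsad2 and Oasl1 differed between genotypes. They read 5′ to 3′ in the direction of the gene, and capitals mark the response element core. The Isg15 window lies on the minus strand at chr4:156200769-156201068, that of Ifit1 on the plus strand at chr19:34640639-34640938, that of Rsad2 on the minus strand at chr12:26456403-26456702 and that of Oasl1 on the plus strand at chr5:114922990-114923289.
Isg15: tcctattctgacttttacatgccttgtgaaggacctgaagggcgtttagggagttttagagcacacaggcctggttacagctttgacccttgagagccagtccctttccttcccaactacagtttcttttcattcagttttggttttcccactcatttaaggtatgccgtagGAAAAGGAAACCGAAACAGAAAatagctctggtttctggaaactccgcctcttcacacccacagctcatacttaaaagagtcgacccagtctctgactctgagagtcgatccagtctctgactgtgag
Ifit1: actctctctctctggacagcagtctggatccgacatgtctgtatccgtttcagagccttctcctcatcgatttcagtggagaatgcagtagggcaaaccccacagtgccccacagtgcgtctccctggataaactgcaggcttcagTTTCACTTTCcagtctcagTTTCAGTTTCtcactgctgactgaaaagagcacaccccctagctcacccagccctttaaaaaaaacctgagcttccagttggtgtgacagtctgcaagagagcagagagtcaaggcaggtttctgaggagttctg
Rsad2: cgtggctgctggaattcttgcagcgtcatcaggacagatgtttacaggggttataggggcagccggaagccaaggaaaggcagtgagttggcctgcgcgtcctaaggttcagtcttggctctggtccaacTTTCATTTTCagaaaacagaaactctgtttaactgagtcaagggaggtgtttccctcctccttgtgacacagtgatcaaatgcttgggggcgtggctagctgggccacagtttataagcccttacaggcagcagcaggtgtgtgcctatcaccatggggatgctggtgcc
Oasl1: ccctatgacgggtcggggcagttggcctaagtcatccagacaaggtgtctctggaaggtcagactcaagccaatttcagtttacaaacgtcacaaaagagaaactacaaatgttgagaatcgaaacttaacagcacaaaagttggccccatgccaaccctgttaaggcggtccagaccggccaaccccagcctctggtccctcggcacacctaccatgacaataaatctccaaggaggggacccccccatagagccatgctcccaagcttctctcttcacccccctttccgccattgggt

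In the Isg15 window 3 overlapping cores begin 78, 72 and 66 bases before the start. Ifit1 has 2 cores, 104 and 85 bases before the start, and Rsad2 has 1 at 120 bases. The Oasl1 window has no match to these letters, as do those of Oasl2, Ifi44, Herc6, Irf7, Xaf1, Cmpk2, Irf9 and Ifit2. Shorter stretches of 50 bases round the element are shown for other genes whose values are described below. They are Gbp3 (plus strand, chr3:142559982-142560031), Trim30a (minus, chr7:104465200-104465249), Oas1a (minus, chr5:120907513-120907562), Bst2 (minus, chr8:71537570-71537619) and Ifih1 (minus, chr2:62646206-62646255). In the first 4 of these genes the first core begins 45, 36, 20 and 130 bases before the start, and in Ifih1 it begins 32 bases after it.
Gbp3: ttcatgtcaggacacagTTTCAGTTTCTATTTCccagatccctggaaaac
Trim30a: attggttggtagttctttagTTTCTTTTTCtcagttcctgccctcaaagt
Oas1a: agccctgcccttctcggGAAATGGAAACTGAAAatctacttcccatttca
Bst2: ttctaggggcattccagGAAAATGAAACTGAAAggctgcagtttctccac
Ifih1: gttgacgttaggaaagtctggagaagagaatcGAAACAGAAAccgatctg

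All 31 genes were expressed in gut tissue, at levels that spanned more than an order of magnitude per length. As RPKM (CPM per 1000 bases of exon, averaged over the 39 libraries), Irf7 was highest at 31.7, followed by Bst2 at 30.9, Isg15 at 29.2 and Oasl1 at 24.0. The lowest were Mx1 at 1.57, Ifi44 at 1.10 and Mx2 at 0.814. Mx1 belongs to the dynamin-like GTPases. Only its transcript was measured, and whether these mice make a working Mx1 protein was not tested. The GENCODE annotation lists Mx2 as a polymorphic pseudogene. Over single libraries Irf7 ran from 12.3 to 55.1 RPKM and Isg15 from 10.9 to 103 RPKM, so these neighbours in the order did not differ beyond their spread.

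In wild-type mice, tumours and the tissue around them did not differ in any of the 31 genes at an adjusted p under 0.05 (edgeR's quasi-likelihood test, Benjamini-Hochberg over all 16327 genes). Of all genes, 5.05% were called in this comparison (1.9% higher and 3.15% lower in tumours). The median log2 fold change of the 31 genes was 0.15, against 0.07 over all genes. At an unadjusted p under 0.05 there were 4 genes (21.3% of all genes): Mx1 with a log2 fold change of 1.30 ± 0.47 (SE), and the 3 guanylate-binding proteins with -0.91 to -1.12. DESeq2 also called none (3.86% higher and 3.26% lower over all genes), and limma-voom with sample quality weights called 1 higher and 5 lower (19.8% and 17.7%). Only 11 of 31 genes had a 95% interval that lay within a 2-fold change in either direction (49.7% of all genes). With 4 non-tumour libraries, larger differences in the other 20 were not excluded.

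In ex/ex mice the same comparison called 47.1% of all genes (23.8% higher and 23.3% lower in tumours) but 3 of the 31 interferon response genes. Mx1 rose, and Rsad2 and Ifih1 fell. By limma-voom 7 were higher and 5 lower (34.9% and 37.4% of all genes). The other 28 genes were not called, and the median log2 fold change was 0.02, against -0.03 over all genes. For 22 of 31 genes the 95% interval lay within a 2-fold change, against 48.6% of all genes.

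Between the genotypes, ex/ex tumours differed from wild-type tumours in 33.3% of all genes (15.2% higher and 18.0% lower) and in 5 of the 31. Rsad2, Gbp3, Trim30a and Parp14 were higher in ex/ex tumours and Oasl1 was lower. By limma-voom 19 were higher and 2 lower (33.7% and 38.9% of all genes). The median log2 fold change was 0.24, against -0.01 over all genes, and 23 of 31 genes had a positive value. In non-tumour tissue 23 of 31 were positive as well, and the share over all genes was not computed. The median in tumours was 0.09 without ex/ex tumour replicate 14 and 0.40 without wild-type tumour replicate 4. With the B and plasma cell covariate described below it was -0.06. With all libraries and no covariate the interval lay within a 2-fold change for 26 genes, against 65.7% of all genes. This comparison and the previous one share the 17 ex/ex tumours. In non-tumour tissue none of the 31 was called between genotypes by edgeR, against 1.42% of all genes (0.398% higher and 1.02% lower in ex/ex). Rsad2 alone had an unadjusted p under 0.05, as did 10.5% of all genes. DESeq2 called none (0.643% and 1.22% of all genes), and limma-voom 1 higher (5.23% and 4.55%). The tumour change itself differed between genotypes for none of the 31 by edgeR, against 0.202% of all genes (0.0857% higher and 0.116% lower in ex/ex). Gbp3 alone had an unadjusted p under 0.05, as did 14% of all genes. DESeq2 called none (0.214% and 0.6%), and limma-voom 6 higher and 2 lower (24.4% and 27.4%). The groups overlapped in each of the 31 genes in all 4 comparisons between groups. Over all genes 1.89% and 4.52% did not overlap between tumour and non-tumour tissue in wild type and ex/ex, and 0.288% and 2.78% between the genotypes in tumours and non-tumour tissue.

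**Figure D1:**
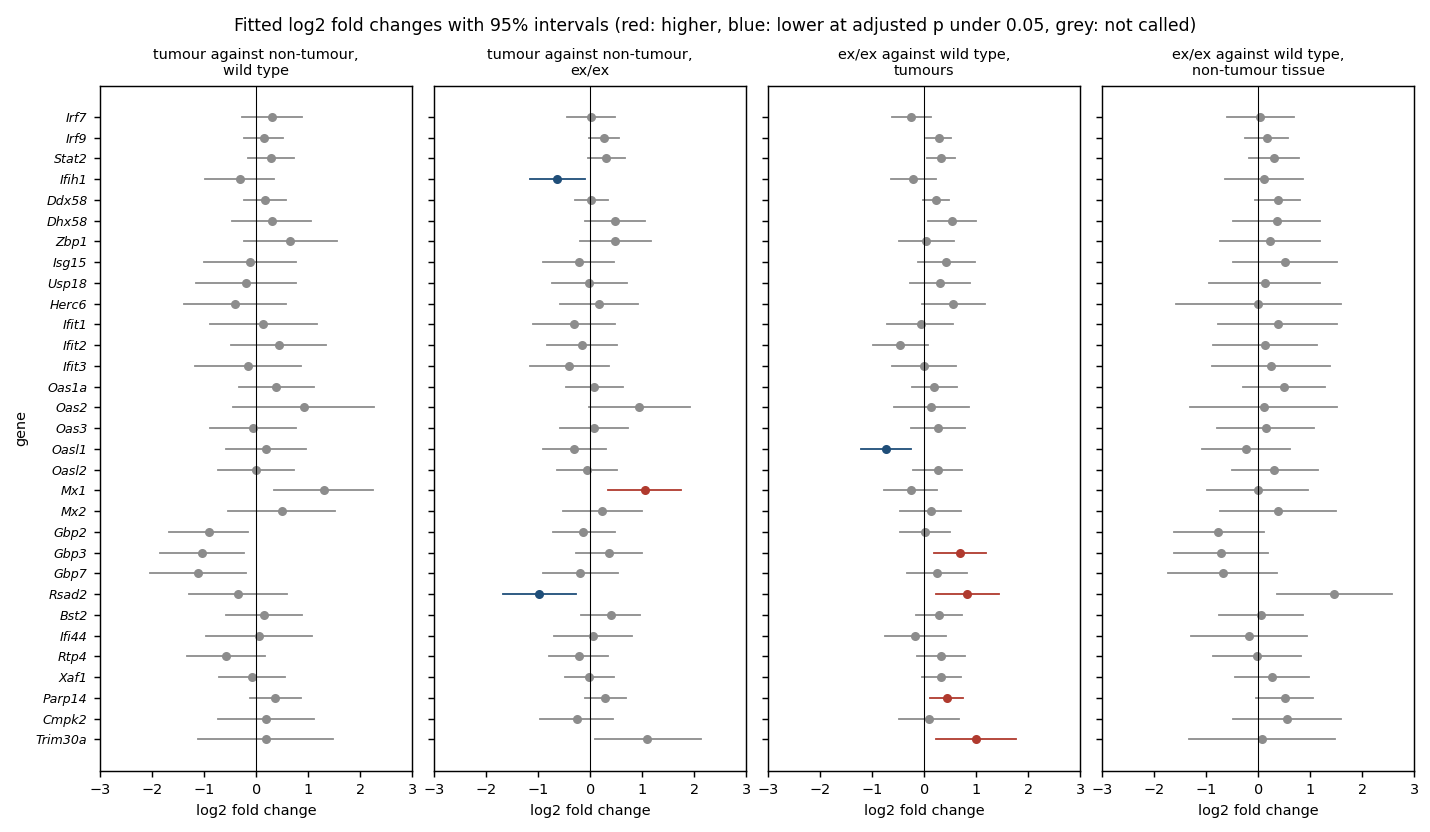
Fitted log2 fold changes of the 31 interferon response genes (x axis) with 95% intervals, for tumours over non-tumour tissue within a genotype and for ex/ex over wild type within a tissue. Red points are higher and blue points lower at an adjusted p under 0.05; 3 genes are coloured for ex/ex tumours over non-tumour tissue, 5 for the genotypes in tumours and none in the other panels.

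The wild-type tumour group leans on replicate 4, the library with few epithelial transcripts, which held the highest value of its group for 14 of the 31 genes and the lowest for 7. Without it, ex/ex tumours were higher in 11 genes and lower in 1 (24.9% and 21.1% of all genes). Irf9, Dhx58, Herc6, Oas2, Stat2, Xaf1 and Bst2 then joined the 4 named above, and Oasl1 was again the lower one. Trim30a moved from a log2 fold change of 1.0 to 1.54. Tumour against non-tumour tissue in ex/ex then gave 4 higher (Mx1, Irf9, Trim30a and Oas2) and 2 lower genes, against 28.0% and 23.3% of all genes, a contrast that shares the fit with that library but does not contain it.

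Upstream of the list, interferon transcripts were at the floor of detection. Of 20 interferon genes other than Ifng, 15 had 0 counts in every library, among them Ifnb1, Ifnl2 and Ifnl3, and the other 5 summed to 17 counts over all 39 libraries. A count of 0 allows up to 3 counts, which covers counting error only. By raw library size this stands for 0.27 CPM in the deepest and 6.84 CPM in the shallowest library. With the TMM sizes used for the other CPM values, 3 counts in the shallowest library equal 18.2 CPM. Ifng, the type II interferon of T and NK cells, had 69 counts in 22 libraries, with a highest value of 0.98 CPM in ex/ex tumour replicate 11. None of these genes passed the filter, so none was tested.

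None of the 6 receptor genes was called between tumour and non-tumour tissue in either genotype by edgeR with all libraries and no covariate. Of all genes 5.05% were called in wild type and 47.1% in ex/ex. By limma-voom 1 was higher and 3 were lower in ex/ex tumours (34.9% and 37.4% of all genes). Ifnar2 was lower in wild-type ones (17.7% of all genes). Without wild-type tumour replicate 4 Ifnar2 was higher in ex/ex tumours than in the tissue around them (0.53, adjusted p = 0.046 by edgeR), and with the B and plasma cell covariate it was lower (-0.55, adjusted p = 0.026). Ifnar2, a chain of the type I receptor, was higher in ex/ex tumours with a log2 fold change of 0.58 ± 0.19 (edgeR adjusted p = 0.020). It stood at -0.05 with the B and plasma cell covariate (adjusted p = 0.83 by edgeR) and was not called with a T cell covariate. For Ifnar1, Ifngr1 and Ifnlr1 the same contrast gave 0.06 ± 0.12, -0.06 ± 0.14 and -0.33 ± 0.21. None of them was called by edgeR with all libraries and no covariate. With the B and plasma cell covariate Ifngr2, Ifnlr1 and Il10rb were higher in ex/ex tumours (11.7% of all genes). Without the libraries that look male 1 receptor gene was higher and 2 lower, Ifnlr1 among those called (22.5% and 26.9%). By limma-voom 2 were higher and 3 lower, Ifnar1 and Ifnlr1 among them (33.7% and 38.9%).

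The transcription factors that carry the signal split into the members and their partners. Stat2 was at 55.9 ± 18.6 CPM in wild-type tumours (n = 12) and 69.7 ± 11.7 CPM in ex/ex tumours (n = 17), a log2 fold change of 0.32 ± 0.14 (edgeR adjusted p = 0.064). Irf9, its DNA-binding partner, gave 0.28 ± 0.12 (adjusted p = 0.060 by edgeR), and exons of Irf9 overlap Rnf31 on the same strand. Irf7, the factor that amplifies interferon production, gave -0.25 ± 0.18 (adjusted p = 0.29 by edgeR). These 3 overlapped widely between groups. In a list of 13 further signalling genes, by contrast, 10 rose and none fell from non-tumour tissue to tumour in ex/ex, and between the genotypes in tumours 9 were higher and none lower on the ex/ex side (of all genes 23.8% and 23.3%, then 15.2% and 18.0%, in the respective directions). The inhibitor Socs1 rose by 1.80 ± 0.40 on the log2 scale in ex/ex tumours against non-tumour tissue (edgeR adjusted p = 0.00049), and Irf8, a factor of B cells and dendritic cells, by 1.58 ± 0.34 (0.00042). With the mean of 14 B and plasma cell genes as a covariate, 0 of the 13 rose and 1 fell in the first of these comparisons (8.56% and 11.7% of all genes). In the second 1 (Irf2) was higher and 0 lower (11.7% and 8.10%). With the T cell covariate 3 rose and 0 fell in the first comparison (9.74% and 12.5% of all genes). In the second 4 were then higher and 0 lower (7.69% and 9.25%). By limma-voom 10 rose and 2 fell in the first (34.9% and 37.4%), and 11 were higher and 0 lower in the second (33.7% and 38.9%). In bulk tissue, more cells of a type and more RNA per cell cannot be told apart.

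Among the cytosolic sensors, Ifih1 fell in ex/ex tumours against the tissue around them. Ifih1 encodes MDA5, which detects long double-stranded RNA. Its CPM ran from 71.0 (median 97.1) to 126 in ex/ex non-tumour tissue and from 24.6 (median 68.6) to 111 in ex/ex tumours. In wild type it ran from 22.1 (median 73.7) to 112 in tumours, and non-tumour tissue had 54.5, 110, 121 and 69.2 CPM. The median of the ex/ex tumours, at 68.6 CPM, lay just below the lowest ex/ex non-tumour library, at 71.0 CPM. Ex/ex tumour replicates 4 and 5 were lowest, and the ex/ex tumours above the median lay within the non-tumour range. The log2 fold change was -0.63 ± 0.26 (edgeR adjusted p = 0.046), and the call was lost on leaving out any 1 of 16 libraries, where the adjusted p lay between 0.052 and 0.12. These were ex/ex tumour replicates 4, 5, 8 to 12 and 15, ex/ex non-tumour replicates 1, 2, 5 and 6, wild-type tumour replicates 1, 7 and 8 and wild-type non-tumour replicate 4. With the B and plasma cell covariate the value turned to 0.18 (adjusted p = 0.72 by edgeR), and with the T cell covariate it was -0.21 (0.60). Ddx58, which encodes RIG-I, stood at 74.4 ± 17.7 CPM in ex/ex non-tumour tissue (n = 6) and 75.6 ± 17.6 CPM in ex/ex tumours (n = 17), a log2 fold change of 0.02 ± 0.15 with a 95% interval within a 2-fold change. Dhx58, the regulator LGP2, and Zbp1, a sensor of Z-form nucleic acid, gave 0.47 ± 0.29 and 0.48 ± 0.34 in the same comparison and were not called.

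A list of 13 other sensing genes had 6 higher and 4 lower in that comparison (23.8% and 23.3% of all genes). Its leading members were the endosomal DNA receptor Tlr9 with 4.60 ± 0.89 and Tmem173, which encodes STING, with 2.47 ± 0.48 (edgeR adjusted p = 0.00013 and 0.00014). With the B and plasma cell list as covariate 0 were higher and 2 lower (8.56% and 11.7% of all genes).

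No gene of the ISG15 system was called in any comparison by edgeR with all libraries and no covariate. Isg15, a ubiquitin-like protein that is conjugated to other proteins, ran from 9.37 (median 15.9) to 40.3 CPM in wild-type tumours and from 8.27 (median 19.2) to 78.0 CPM in ex/ex tumours. In non-tumour tissue it was at 12.1, 21, 22.8 and 16.9 CPM in wild type and ran from 8.95 (median 27) to 39.8 CPM in ex/ex. All 4 groups overlapped, and the spread within the ex/ex tumours exceeded every difference of group means. The log2 fold change between genotypes in tumours was 0.42 ± 0.27 (edgeR adjusted p = 0.23). Usp18, which removes ISG15 and dampens the receptor, gave 0.30 ± 0.29, and Herc6, the mouse ISG15 ligase, 0.56 ± 0.30.

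The IFIT proteins, which bind foreign RNA, were not called in any comparison by edgeR with all libraries and no covariate. Ifit1 averaged 42.7 ± 16.4 CPM in wild-type tumours (n = 12) and 40.6 ± 26.7 CPM in ex/ex tumours (n = 17). It averaged 36.8 ± 20.6 CPM (n = 4) and 50.3 ± 25 CPM (n = 6) in the respective non-tumour tissues. These averages lay well inside the ranges of each other's group. Ifit1, Ifit2 and Ifit3 had log2 fold changes of -0.16 to -0.40 in ex/ex tumour against non-tumour tissue. Reads shared with near-identical copies such as Ifit3b may be missing from Ifit3.

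The OAS family comprises the 2′-5′ oligoadenylate synthetases, whose product activates RNase L, and proteins related to them. Oasl1, a member without synthetase activity that in mouse restrains Irf7 translation, was the only one of 5 called between genotypes. It ran from 25.5 (median 89.3) to 127 CPM in wild-type tumours and from 15.3 (median 41.9) to 94.9 CPM in ex/ex tumours. Non-tumour tissue had 54.5, 70.1, 69.6 and 85.1 CPM in wild type and ran from 24.7 (median 65.2) to 77.9 CPM in ex/ex. Most ex/ex tumours lay below the median of the wild-type tumours, but replicates 1, 2 and 14 did not fall below 80.0 CPM, and wild-type replicate 4 was the lowest wild-type tumour. The log2 fold change was -0.73 ± 0.24 (edgeR adjusted p = 0.017), and the call held on leaving out each library in turn (adjusted p up to 0.038). It was lost with each of 3 covariates, at 0.07 for B and plasma cell genes, -0.32 for T cell genes and -0.58 for macrophage genes (adjusted p = 0.89, 0.38 and 0.066 by edgeR). Oas2 had 1 high library in several groups, at 51.4 CPM in wild-type tumour replicate 4, 32.3 CPM in ex/ex tumour replicate 14 and 24.2 CPM, or 4 counts, in the shallow wild-type non-tumour replicate 1. Its log2 fold change between genotypes in tumours was 0.13 ± 0.35 with all libraries and 0.87 (edgeR adjusted p = 0.011) without wild-type tumour replicate 4. Oas1a, Oas3 and Oasl2 gave 0.19 to 0.27 in this contrast, none called. Oas1a has close copies next to it, and reads shared with them may be missing.

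Mx1 rose in ex/ex tumours. It ran from 2.46 (median 3.04) to 4.20 CPM in ex/ex non-tumour tissue and from 4.16 (median 5.52) to 11.7 CPM in ex/ex tumours. In wild type, non-tumour tissue had 0.00, 2.93, 4.05 and 2.85 CPM, and tumours ran from 2.18 (median 5.54) to 30.2 CPM. The ex/ex groups met only at their edge, where the lowest tumour at 4.16 CPM lay just under the highest non-tumour library at 4.20 CPM. The log2 fold change was 1.05 ± 0.35 in ex/ex (edgeR adjusted p = 0.014) and 1.30 ± 0.47 in wild type (0.098), and the difference between them was -0.25 ± 0.56 (0.86). The ex/ex call held on leaving out each library in turn, with an adjusted p of up to 0.036. It was lost with the B and plasma cell list as covariate, with a log2 fold change of 0.33 (edgeR adjusted p = 0.58), and with the T cell list, at 0.63 (0.20). The B and plasma cell list mean was 1.80 to 3.12 in ex/ex non-tumour tissue and had a median of 7.62 in ex/ex tumours. That covariate thus nearly follows this contrast, and a lost call cannot separate lymphoid content from tumour. Mx2 gave 0.23 ± 0.37 in ex/ex.

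The guanylate-binding proteins, GTPases that attack the vacuoles of intracellular pathogens, had the lowest log2 fold changes of the list in wild-type tumours and were not called there. Gbp2 was at 121, 25.4, 19.5 and 59.3 CPM in wild-type non-tumour tissue, and Gbp3 at 78.7, 15, 12.7 and 36.7 CPM. The first and last of these are the shallow library and the one rich in blood and vessel genes, and the other 2 lay within the range of the tumours. Gbp3 was higher in ex/ex tumours, where it ran from 7.68 (median 24.7) to 28.6 CPM, than in wild-type tumours, where it ran from 5.90 (median 10.4) to 34.8 CPM. Wild-type replicates 1 and 7, at 27.2 and 22.2 CPM, lay among the ex/ex tumours, replicate 4 lay above all of them at 34.8 CPM, and ex/ex replicates 1 and 2, at 11 and 7.68 CPM, among the other wild-type tumours. The log2 fold change was 0.68 ± 0.25 (edgeR adjusted p = 0.032). The call was lost on leaving out any 1 of 13 libraries (adjusted p of 0.051 to 0.065), wild-type tumour replicates 2, 3 and 8 to 12 and ex/ex tumour replicates 4, 5 and 8 to 11. Gbp2 and Gbp7 gave 0.02 ± 0.23 and 0.24 ± 0.29.

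Of the other effectors, Rsad2 encodes viperin, a radical enzyme that makes a chain-terminating nucleotide, and Cmpk2, its neighbour in the genome, encodes the kinase that supplies the substrate. Rsad2 ran from 7.85 (median 26.0) to 37.5 CPM in ex/ex non-tumour tissue and from 2.87 (median 10.6) to 28.2 CPM in ex/ex tumours. In wild type it ran from 3.98 (median 5.78) to 12.4 CPM in tumours, and non-tumour tissue had 0.00, 7.78, 6.13 and 15.4 CPM. Of the ex/ex non-tumour libraries only replicate 6 lay below 19.7 CPM, and no wild-type library came above 15.4 CPM. Rsad2 fell by 0.98 ± 0.34 on the log2 scale in ex/ex tumours against non-tumour tissue (edgeR adjusted p = 0.019). It was higher in ex/ex than in wild-type tumours by 0.83 ± 0.30 (adjusted p = 0.029 by edgeR). The first call was lost without ex/ex non-tumour replicate 1 or 4 (adjusted p of 0.051 to 0.069) and the second without wild-type tumour replicate 3 or 11 (0.052 to 0.053). With the B and plasma cell and the T cell covariates the first stood at -0.63 and -0.82 and was lost (adjusted p = 0.33 and 0.12 by edgeR). In non-tumour tissue the genotype difference was larger, at 1.46 ± 0.55, and was not called (adjusted p = 0.23 by edgeR). Without the libraries that look male the tumour difference was 0.59 (edgeR adjusted p = 0.093), and sex and genotype cannot be told apart for them. Rsad2 lies on chromosome 12 at 26442746 to 26456452, 5.07 Mb from Adam17, and Cmpk2 lies 5.10 Mb from it, so both sit near the modified locus; what part the flanking sequence has was not tested. Cmpk2 itself gave 0.09 ± 0.28 between the genotypes in tumours.

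Trim30a, a mouse ubiquitin ligase that tempers NF-kB signalling, had the widest spread of the list in wild-type tumours. There it ran from 7.45 (median 11) to 140 CPM, against 14.9 (median 64.1) to 131 CPM in ex/ex tumours. In non-tumour tissue it was at 60.6, 20.4, 21.5 and 29.0 CPM in wild type and ran from 21.3 (median 29.2) to 38.1 CPM in ex/ex. Wild-type replicates 1 and 7, at 74.7 and 62.7 CPM, lay with the ex/ex tumours, replicate 4 lay above all of them at 140 CPM, and no other wild-type tumour exceeded 23.9 CPM. The log2 fold change between the genotypes was 1.0 ± 0.38 (edgeR adjusted p = 0.042), lost on leaving out any 1 of 20 libraries (adjusted p of 0.053 to 0.095). These were wild-type tumour replicates 2, 3, 5, 6 and 8 to 12, ex/ex tumour replicates 4, 5, 8 to 14 and 17, and wild-type non-tumour replicate 4.

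Parp14, an ADP-ribosyltransferase, ran from 85.1 (median 134) to 177 CPM in wild-type tumours. The ex/ex tumours had a mean of 181 ± 44.9 CPM (SD, n = 17), a lowest value of 102 CPM and a median of 178 CPM, just above the highest wild-type tumour, and their lower values overlapped the wild-type range. Its log2 fold change was 0.43 ± 0.16 (edgeR adjusted p = 0.032), lost without wild-type tumour replicate 8, 9, 10 or 12 or ex/ex tumour replicate 14 (adjusted p of 0.052 to 0.066). Without the libraries that look male it was 0.33 (edgeR adjusted p = 0.072). The call was also lost with the B and plasma cell and the T cell covariates, where the log2 fold change stayed at 0.40 and 0.38 (adjusted p = 0.12 and 0.11 by edgeR). Bst2 or tetherin, which holds budding virions at the cell surface, gave 0.28 ± 0.22. Rtp4, Xaf1 and Ifi44 gave 0.33, 0.33 and -0.17 in the same contrast. They were not called in any comparison by edgeR with all libraries and no covariate.

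**Figure D2:**
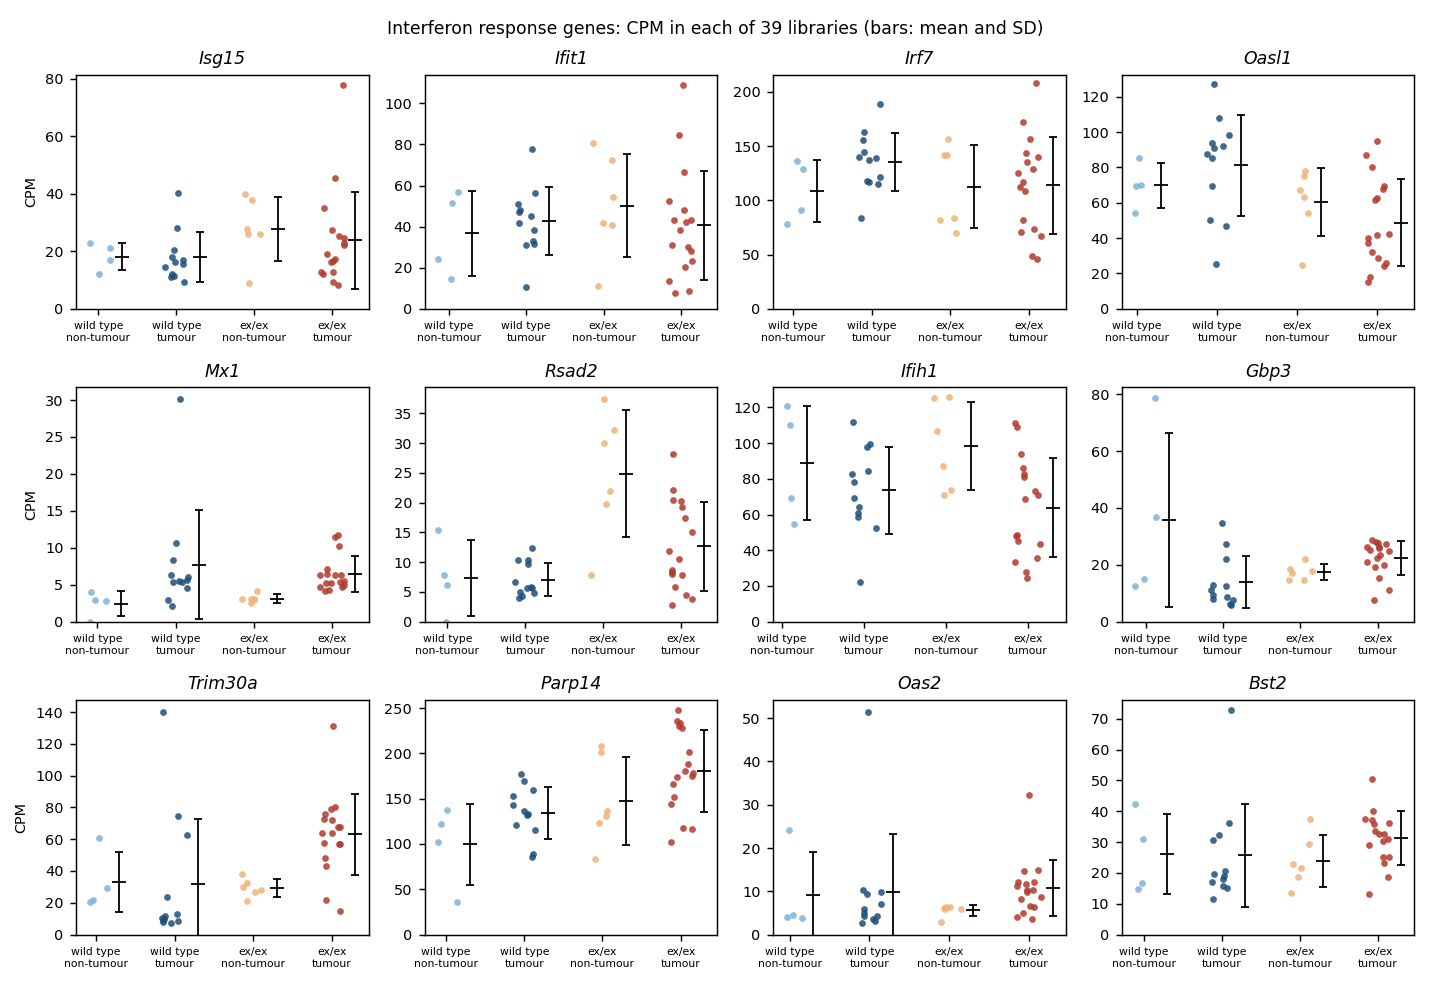
CPM (y axis, linear) of 12 interferon response genes in each of the 39 libraries by group, 1 point per library, with the mean and SD beside the points (SD bars are cut at 0). Mx1 separates ex/ex tumours from ex/ex non-tumour tissue except at 4.16 to 4.20 CPM, Rsad2 is highest in ex/ex non-tumour tissue, and Trim30a and Gbp3 form a high and a low set within the wild-type tumours.

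In a list of 41 further interferon-stimulated genes, 16 rose and 3 fell from non-tumour tissue to tumour in ex/ex, where 23.8% and 23.3% of all genes did. Between the genotypes in tumours 9 of the 41 were higher and 5 lower, where 15.2% and 18.0% of all genes were. Without wild-type tumour replicate 4 the counts between the genotypes were 18 and 5 (24.9% and 21.1% of all genes). By limma-voom they were 23 and 7 (33.7% and 38.9%). With the B and plasma cell covariate 1 of the 41 was higher and 7 lower from non-tumour tissue to tumour in ex/ex (8.56% and 11.7% of all genes). Between the genotypes in tumours 4 were then higher and 4 lower (11.7% and 8.10%). The IFITM genes, which encode membrane proteins that block viral entry and are also expressed by intestinal epithelium, led those lower in ex/ex tumours. Ifitm1, Ifitm2 and Ifitm3 had log2 fold changes of -2.19 ± 0.25, -2.0 ± 0.22 and -2.09 ± 0.22 between the genotypes in tumours (edgeR adjusted p of 3.4e-08, 1.9e-08 and 1.1e-08). With the B and plasma cell list as covariate they stood at -1.41, -0.86 and -1.17 and were still called. Ifitm1 was also called lower between the genotypes in non-tumour tissue, with -2.32 ± 0.44 (edgeR adjusted p = 0.0015). Vessel and blood genes were lower between the same tumours: 9 of 11 endothelial, 5 of 5 red blood cell, 4 of 6 neutrophil and 3 of 7 fibroblast genes (18.0% of all genes). None of these was higher (15.2% of all genes). The endothelial genes summed to 153 to 391 CPM in wild-type and 93.2 to 166 CPM in ex/ex tumours, and their part in the IFITM difference was not tested. A list of 31 genes of the type II response gave 9 higher and 1 lower from non-tumour tissue to tumour in ex/ex (23.8% and 23.3% of all genes). Between the genotypes in tumours it gave 9 higher and none lower (15.2% and 18.0%). Without wild-type tumour replicate 4 the counts between the genotypes were 14 and 0 (24.9% and 21.1%). By limma-voom they were 25 and 0 (33.7% and 38.9%). With the B and plasma cell covariate this list gave 0 higher and 13 lower in ex/ex tumours against non-tumour tissue (8.56% and 11.7% of all genes). Between the genotypes in tumours it then gave 1 higher and 7 lower (11.7% and 8.10%). The immunoproteasome subunit Psmb8 (0.90 ± 0.25) and the peptide transporter Tap2 (0.72 ± 0.19) were higher in ex/ex tumours (edgeR adjusted p = 0.0065 and 0.0040). Both calls were lost with that covariate, at 0.02 and 0.07 (adjusted p = 0.95 and 0.75 by edgeR).

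Within 3 of the 4 groups the median spread of the 31 genes was above that over all genes. The median over the genes of the SD of log2 CPM within a group was 0.700 in wild-type tumours, 0.653 in those of ex/ex mice and 0.491 in the ex/ex tissue around them, against 0.505, 0.467 and 0.326 over all genes. For wild-type non-tumour tissue, which includes the shallow library, it was 0.714 against 0.713. Single libraries were the highest or lowest of their group for many of the genes, and the spread was not computed without them. Ex/ex tumour replicate 14 was the highest of its 17 for 21 of the 31 genes and among the top 3 for 26, with Isg15 at 78.0, Oasl2 at 207 and Oas3 at 103 CPM. Replicate 13 was among the top 3 for 20. Replicates 4 and 5 were the lowest for 10 and 7 genes, with Isg15 at 8.27 and 9.19 and Ifit1 at 8.79 and 7.89 CPM. Of all pairs of ex/ex tumours, this one had the most similar counts. In ex/ex non-tumour tissue replicate 1 was highest for 16 genes and replicate 6 lowest for 23. In replicate 14 the mean log2 CPM was 7.74 for B and plasma cell genes, 4.32 for macrophage genes and 8.95 for epithelial genes. In replicates 4 and 5 it was 8.04 and 8.10, 4.49 and 4.46, and 7.94 and 7.64, the last pair being the lowest epithelial means of the 17 ex/ex tumours. The part of cell content in this spread was not tested.

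**Figure D3:**
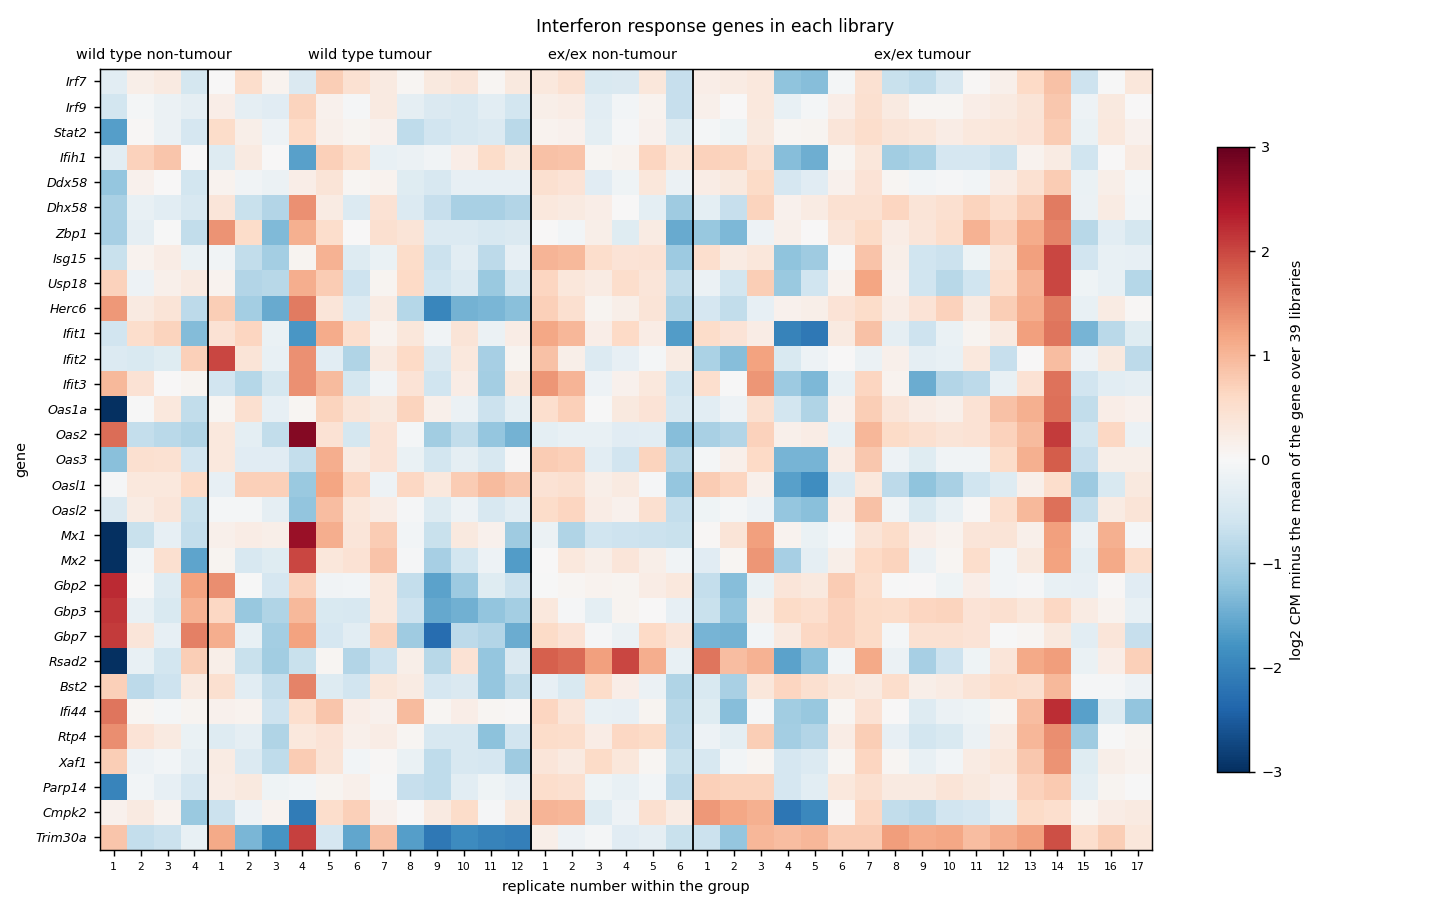
Log2 CPM of each interferon response gene minus its mean over the 39 libraries (colour, -3 to 3; values beyond are drawn at the ends), genes in rows by role and libraries in columns by group and replicate number. Ex/ex tumour replicate 14 is high for most genes, ex/ex tumour replicates 4 and 5 and ex/ex non-tumour replicate 6 are low, and wild-type tumour replicate 4 is high for Oas2, Mx1 and Trim30a but low for Ifih1 and Cmpk2.

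B and plasma cell transcripts differed most clearly between ex/ex tumours and the tissue around them, and they moved with part of the list. In that comparison edgeR called 12 of 14 such genes higher and 1 lower (23.8% and 23.3% of all genes). Between the genotypes in tumours 3 were higher and 1 lower (15.2% and 18.0%). In wild-type tumours against non-tumour tissue 1 was higher (1.9%). Between the genotypes in non-tumour tissue 0 were called (1.42%). The 14 B and plasma cell genes, all of which were tested, summed to 715 to 7761 CPM in wild-type tumours, 1693 to 3155 CPM in wild-type non-tumour tissue, 551 to 5598 CPM in ex/ex tumours and 1596 to 3474 CPM in ex/ex non-tumour tissue. The mean log2 CPM of the list was 7.92, 8.17 and 7.39 in wild-type tumour replicates 1, 4 and 7, inside the range of most ex/ex tumours, and ex/ex tumour replicate 2 had 1.59. Within the 4 groups, 15 of the 31 genes had a positive slope on this mean (34.0% of all genes), 3 a negative one (37.0%) and 13 neither, by edgeR at an adjusted p under 0.05. Trim30a had the steepest, at 0.45 ± 0.04 log2 units per log2 unit of the list, followed by Oas2 (0.33 ± 0.06), Gbp7 (0.32 ± 0.04), Herc6 (0.27 ± 0.05) and Gbp3 (0.26 ± 0.04). The negative ones were Cmpk2 (-0.22 ± 0.06), Oasl1 (-0.21 ± 0.05) and Ifih1 (-0.18 ± 0.04). Isg15 had -0.02 ± 0.06 and Ifit1 -0.08 ± 0.08. Without wild-type tumour replicate 4 the counts were 12 positive, 3 negative and 16 neither (34.6% positive and 30.6% negative over all genes), and Oas2 went from 0.33 to 0.20 ± 0.06, below Gbp7 (0.33 ± 0.05), Gbp2 (0.27 ± 0.04) and Gbp3 (0.26 ± 0.04). The slope was chosen after the values were seen.

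**Figure D4:**
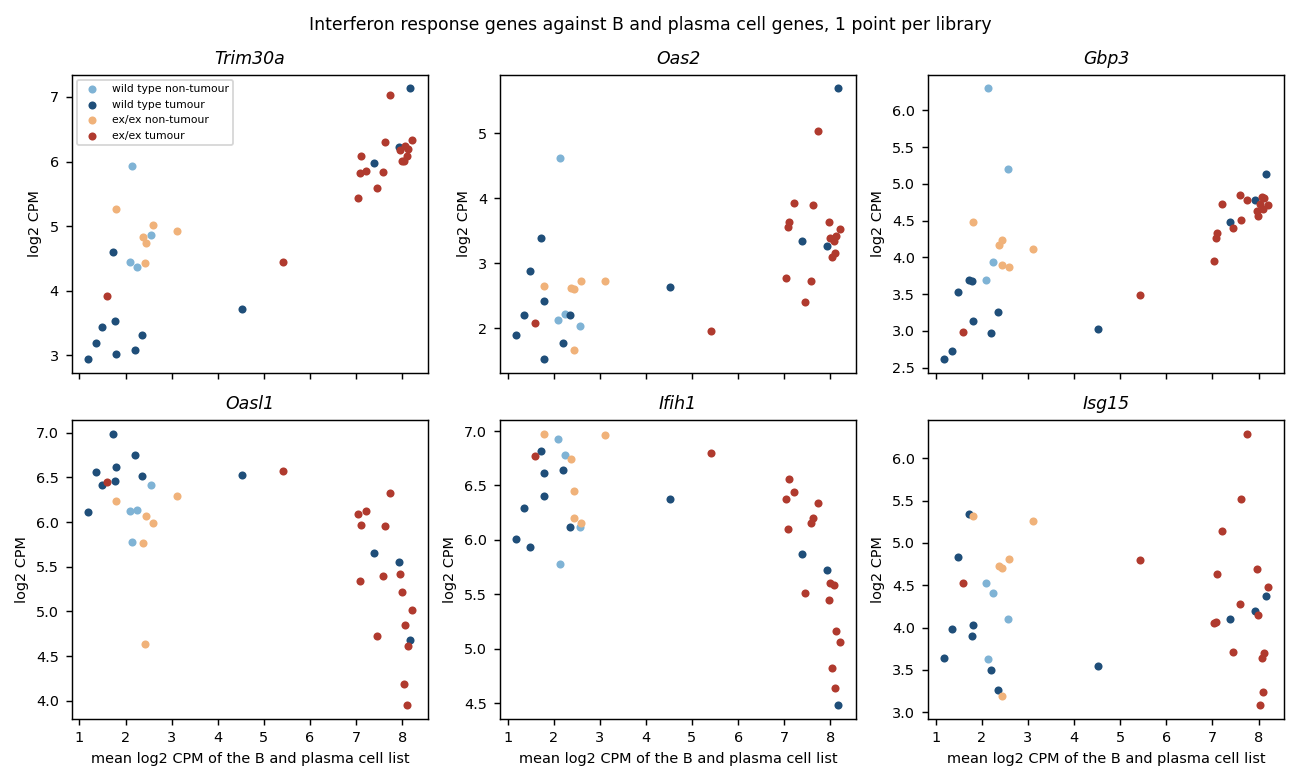
Log2 CPM of 6 interferon response genes (y axis) against the mean log2 CPM of 14 B and plasma cell genes (x axis), 1 point per library, coloured by group. Trim30a, Oas2 and Gbp3 are higher and Oasl1 and Ifih1 lower in the libraries at 7 to 8 on the x axis, while Isg15 spreads over its whole range there.

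With this list mean as a covariate, the calls between the genotypes in tumours were 2 higher (Rsad2 and Cmpk2) and 3 lower genes (Gbp2, Gbp7 and Ifit2), against backgrounds of 11.7% and 8.10%. Rsad2 kept its call at 1.08 (edgeR adjusted p = 0.030). Gbp3 and Trim30a went to -0.16 and -0.07, and Oasl1 to 0.07, all uncalled (adjusted p = 0.60, 0.85 and 0.89 by edgeR). In ex/ex tumours against non-tumour tissue none was higher and 7 were lower, against 8.56% and 11.7% of all genes. With the mean of 15 T and NK cell genes as covariate, Rsad2 was the higher gene (0.95, adjusted p = 0.031 by edgeR) and Ifit2 the lower one between tumours (7.69% and 9.25% of all genes). In ex/ex none was then higher and 2 lower, Gbp2 and Gbp7 (9.74% and 12.5%).

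**Figure D5:**
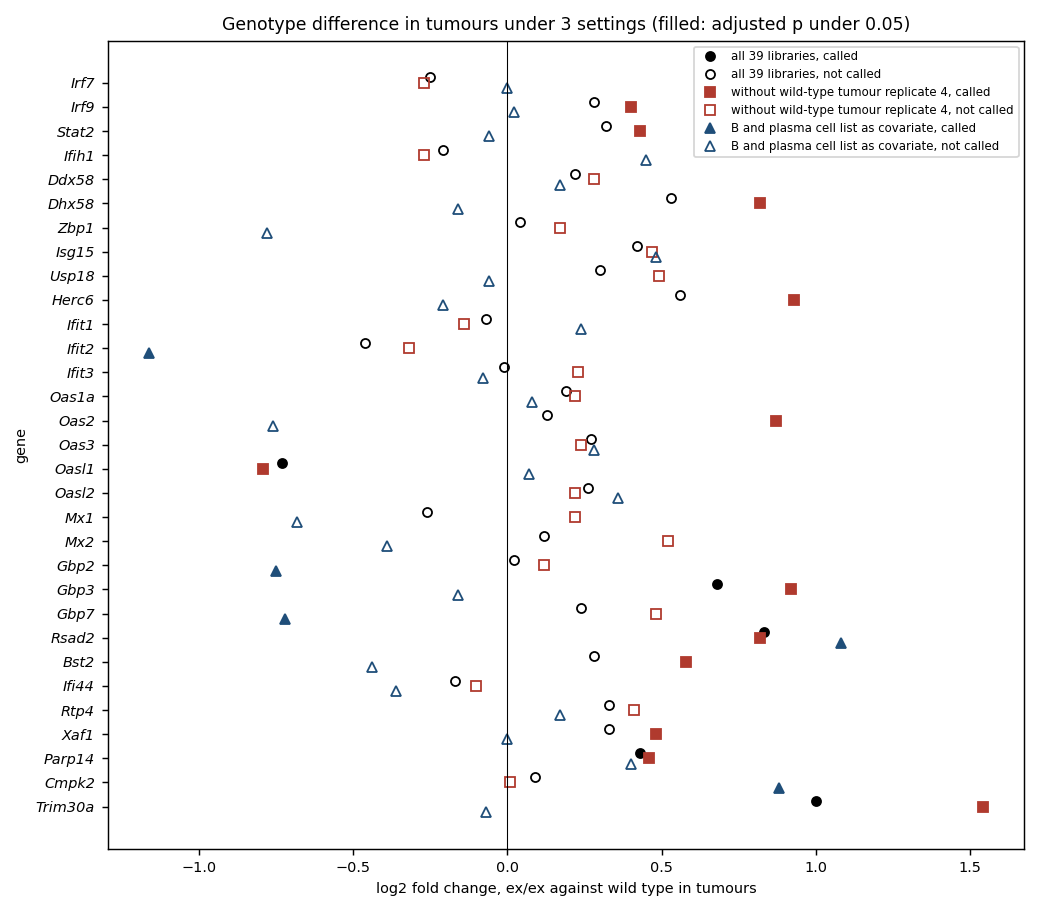
Log2 fold change of ex/ex against wild-type tumours (x axis) for each interferon response gene with all 39 libraries (circles), without wild-type tumour replicate 4 (squares) and with the B and plasma cell list as covariate (triangles); filled symbols have an adjusted p under 0.05. Rsad2 lies at 0.82 to 1.08 and is filled in all 3 settings, while Trim30a runs from -0.07 to 1.54.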

How the data were processed

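The values used were whole-number read counts per gene, deposited by the authors as 1 table per library and not normalized. Per the labels' protocols, RNA was purified with RNeasy and QIAshredder columns and the TruSeq stranded mRNA kit turned 500 ng into libraries. The submitters' processing notes name build GRCm38, Trimmomatic 0.36, TopHat2 2.0.14 and HTSeq, per the labels; 2 settings, the annotation and the counting strand, were not given in the sources used here. Symbols and exon lengths came from GENCODE M21, which matched 49326 of 49585 gene IDs, and the others held 0.0851% of counts. Summary lines without a gene were dropped. Reads with several placements were not counted, which lowers genes with close copies.

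edgeR 4.0.16 (R 4.3.3) fitted 39 libraries in 4 groups (quasi-likelihood test, TMM factors, filterByExpr, common dispersion 0.188). In each of 5 contrasts p-values were adjusted over 16327 genes (Benjamini-Hochberg) and called under 0.05. CPM use TMM library sizes, and log2 CPM add a prior count of 2. Each SE was derived from the fold change and its F statistic. The pipeline was tested on simulated data. Counts of the 2 most similar libraries of a group (ex/ex non-tumour replicates 1 and 2) had a chi-square of 2.01 per degree of freedom. The median over the pairs of that group was 68.7. Ex/ex tumour replicates 4 and 5 had 5.02, against a median of 64.3. No library was treated as a copy, and both libraries of each pair were kept as separate. Whether a pair shares a mouse or a tissue piece is not in the labels. Replicate numbers follow accession order and pair nothing.

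The members and lists were chosen with earlier results of these data known. Any of the 31 genes could be named; of the other lists, the 4 smallest p per contrast and a set of fixed receptor and signalling genes could be. Alternatives were DESeq2 1.42.0, its size factors in edgeR, limma-voom (limma 3.58.1) with quality weights, other count filters, only the groups compared, marker-list covariates and libraries left out. Those without wild-type tumour replicate 4 and non-tumour replicate 1 together, with an epithelial covariate, and the lymphoid slope were added after seeing the data.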

Additional observations from a re-analysis of the deposited data

Results flagged for a closer look

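Over the 62 sets formed by a gene and a group of 4 or 6 non-tumour libraries, 14 held a value set apart from the others by Dixon's criterion, where chance gives about 1 in 20. In ex/ex non-tumour tissue, replicate 6 was low for 8 genes, with CPM of 8.95 for Isg15, 11.1 for Ifit1, 2.95 for Oas2, 24.7 for Oasl1, 39.7 for Oasl2, 6.65 for Usp18, 8.40 for Zbp1 and 9.27 for Rtp4. These genes were measured in the same library and are not independent of each other. In wild-type non-tumour tissue the shallow replicate 1 was low for Mx1 (0.0 CPM) and Oas1a (0.0 CPM) and high for Oas2 (24.2 CPM) and Ifi44 (18.2 CPM), values that rest on 0 to 4 counts. Replicate 4 of that group was high for Ifit2 (13.6 CPM) and low for Cmpk2 (23.1 CPM).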

How the results depend on the processing

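No paired analysis was possible because replicate numbers come from accession order only. The counts of the 31 genes called (higher and lower) depended on the setting; shares of all genes called the same way stand in brackets where the report does not give them. For tumours against non-tumour tissue in wild type (0 and 0), limma-voom with quality weights gave 1 and 5, the macrophage covariate 1 higher (8.01%), and the lymphoid, T cell and epithelial covariates 4, 3 and 2 lower (6.86%, 5.32% and 8.89%). In ex/ex (1 and 2), limma-voom gave 7 and 5, DESeq2 2 higher (28.1%), only the 2 groups compared 4 and 1 (28.1% and 23.9%), the lymphoid covariate 0 and 7, the macrophage covariate 6 higher (27.8%), the T cell covariate 0 higher, and leaving out wild-type tumour 4 with wild-type non-tumour 1 gave 3 higher (25.9%). There DESeq2's size factors, no count filter and leaving out the libraries that look male each gave 1 lower (21.5%, 9.63% and 26.1%). For ex/ex against wild type in tumours (4 and 1), limma-voom gave 19 and 2, no filter 2 higher (6.17%), the lymphoid covariate 2 and 3, the T cell covariate 1 higher, the macrophage covariate 0 lower (14.8%), and leaving out wild-type tumour 4 with wild-type non-tumour 1 gave 11 higher (24.2%). In non-tumour tissue limma-voom gave 1 higher, and for the difference between the tumour changes 6 and 2. Leaving out each library in turn gave 1 to 4 higher and 0 to 2 lower in ex/ex, 1 to 11 higher and 1 lower between tumours, and 0 in the other contrasts.

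Signs reversed under the lymphoid covariate for Trim30a (-0.97) in wild type, for Ifih1 (0.18), Gbp3 (-0.96), Herc6 (-1.14), Trim30a (-1.16) and Bst2 (-0.68) in ex/ex tumours against non-tumour tissue, and for Gbp3 (-0.16), Gbp2 (-0.75), Trim30a (-0.07), Gbp7 (-0.72) and Oasl1 (0.07) between tumours. Trim30a also reversed under limma-voom in wild type (-0.90). The cause was not tested. In ex/ex the lymphoid list mean nearly followed tumour against non-tumour tissue, so signs under that covariate cannot separate lymphoid content from tumour there. Among single genes, 1874 values under the alternatives other than leaving out 1 library kept direction and side of the threshold, 21 lost the call, 77 gained one and 12 reversed. The 4 wild-type non-tumour libraries, 1 of them shallow, limit what could be detected there.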
